A study of Mus musculus with 4 samples.

Results

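The Hedgehog pathway genes described here are 9 genes chosen by name: the receptor *Ptch1*, the co-receptors *Boc*, *Cdon*, and *Gas1*, the surface inhibitor *Hhip*, the signal transducer *Smo*, and the transcription factors *Gli1*, *Gli2*, and *Gli3*. They are 9 of 17419 genes listed in at least 1 of the normalized tables of 4 neural stem cell (NSC) lines, and 7 of them are listed in all 4. The lines were derived from mouse epiblast stem cells (EpiSCs) of the 129/Sv strain, and each was measured as 1 single-cell RNA library on the BD Rhapsody system, in which cells settle in microwells with barcoded beads. All 4 lines were kept in N-2 and B-27 medium with EGF and FGF2 at 10 ng/ml each. XN4 and XN1 also received 10 µM XAV939, a tankyrase inhibitor that lowers Wnt signaling, from separate suppliers (that of XN1 formed crystalline precipitates), CN4 received 2 µM CHIR99021, a GSK3 inhibitor that raises it, and KN1 received neither. XN4 and CN4 came from one derivation experiment and XN1 and KN1 from another, so that inhibitor, supplier, derivation, and library cannot be told apart.

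Hedgehog ligands such as *Shh* bind *Ptch1*, which otherwise keeps *Smo* inactive, and active *Smo*, acting through the primary cilium, turns the Gli factors from repressors toward activators. *Gli1* acts only as an activator, *Gli2* mainly as an activator, and *Gli3* mainly as a repressor. *Gli1*, *Ptch1*, and *Hhip* are themselves activated by the pathway, so that their transcripts serve as its common readouts, and in the embryonic neural tube *Shh* from the notochord and floor plate patterns the ventral side.

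The genes lie at separate loci of the GRCm38 genome (GENCODE M21 coordinates). *Ptch1* lies on chromosome 13 (63508328-63573598, minus strand), *Boc* on chromosome 16 (44485049-44558897, minus), *Cdon* on chromosome 9 (35421128-35507652, plus), *Gas1* on chromosome 13 (60174405-60177365, minus), and *Hhip* on chromosome 8 (79965851-80058006, minus). *Smo* lies on chromosome 6 (29735503-29761365, plus), *Gli1* on chromosome 10 (127329882-127341974, minus), *Gli2* on chromosome 1 (118834132-119053619, minus), and *Gli3* on chromosome 13 (15463235-15730026, plus). *Gli1* overlaps *Arhgap9* and the antisense RNA *Gm47200* on the other strand, and *Gas1* overlaps the noncoding RNA *Gm48488* on the other strand. Entries on the same strand overlap *Ptch1* (*A930032L01Rik*), *Boc* (*Mir3081*), *Cdon* (*Gm25630*), *Smo* (*Gm13717*), and *Gli3* (*Gm48343*). Further entries on the other strand overlap *Cdon*, *Hhip*, *Gli2*, and *Gli3*. The use of strand in counting is not given in the sources used here, so reads of these overlaps cannot be assigned with certainty.

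The RefSeq promoter table (GRCm38) held windows for 7 of the 9 genes, from 250 bases before the transcript start to 50 after it. The consensus Gli site GACCACCCA, or TGGGTGGTC on the other strand, was in 0 of these 7 windows and in 0.253% of 32851 promoters. Its inner letters CCACCC, or GGGTGG, were found in the 250 upstream bases of 4 of the 7 genes, against 28.1% of all promoters. The upstream bases of *Ptch1* (chr13:63565736-63565985), *Hhip* (chr8:80058009-80058258), and *Gli2* (chr1:119053620-119053869), all on the minus strand, are shown because these genes were captured in the same cells as *Gli1*, as described later, with the inner letters in capitals.
Ptch1: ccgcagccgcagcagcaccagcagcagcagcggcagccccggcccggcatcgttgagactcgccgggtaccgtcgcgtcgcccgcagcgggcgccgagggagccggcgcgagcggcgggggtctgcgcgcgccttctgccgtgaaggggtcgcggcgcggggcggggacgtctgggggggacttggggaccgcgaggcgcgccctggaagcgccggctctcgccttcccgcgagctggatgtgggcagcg
Hhip: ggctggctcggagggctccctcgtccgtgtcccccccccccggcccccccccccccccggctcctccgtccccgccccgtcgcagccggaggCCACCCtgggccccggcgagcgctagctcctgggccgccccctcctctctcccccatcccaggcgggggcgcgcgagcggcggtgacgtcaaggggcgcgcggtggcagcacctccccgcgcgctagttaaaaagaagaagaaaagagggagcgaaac
Gli2: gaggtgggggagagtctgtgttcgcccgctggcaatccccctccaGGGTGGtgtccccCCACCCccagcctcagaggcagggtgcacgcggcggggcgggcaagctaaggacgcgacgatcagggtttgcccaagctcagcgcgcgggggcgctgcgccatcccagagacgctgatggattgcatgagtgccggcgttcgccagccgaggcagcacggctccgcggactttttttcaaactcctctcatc
The match in *Hhip* begins 158 bases before the start, and those in *Gli2* begin 205 and 192 bases before it, the first on the other strand. The *Ptch1* stretch, which lies within the longer annotated gene, holds none. The windows of *Cdon* and *Gli3* also lie within their annotated genes. The upstream bases of *Cdon*, which hold no match, overlap 4 exon entries of the gene. These matches describe letters and not binding.

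The normalized tables held 3448 to 3975 cells and 19271688 to 41539513 reads per line, and the tables of all reads, used for XN4, XN1, and CN4, held 8741 to 18157 cells. Libraries of different lines shared 14 to 21 cell barcodes in the normalized tables and 139 to 320 in the tables of all reads. The tables give reads and not molecules. A gene with at least 10 reads per 1000000 reads of its line (RPM) had a median of 5.56 reads per capturing cell in KN1, 2.39 in XN4, 1.51 in CN4, and 1.35 in XN1, and the median KN1 cell had 833 genes against 2257 to 2824 in the other lines. XN4 stood apart in its markers. Of the 10 NSC markers, 6 were listed in XN4, *Sox2* was captured in 0.56% of its cells against 13.9% to 83.9% elsewhere, *Fabp7* was not listed, *Sox1* was not listed there or in XN1, and the list summed to 1635 RPM against 2150 to 8126. The other markers of this list were not all low, as *Zeb2* was captured in 57.0% of XN4 cells, the highest share of the 4 lines (22.4% to 45.0% elsewhere, though KN1 had more by RPM, 292 against 247), and *Vim* in 84.4%, between 40.5% in KN1 and 98.1% in CN4. All 10 mesenchymal markers were listed in XN4, with a sum of 8662 RPM against 7.66 to 202 in the other lines, and *Col3a1* was captured in 97.8% of XN4 cells. The defining epiblast markers were at or near 0 in all lines, with a sum of 0 to 1.92 RPM. As there is 1 library per line, no test between lines was possible, and every interval given is an exact 95% interval that covers counting error alone. Intervals of RPM take each read as independent, so they are too narrow where capturing cells hold several reads of a gene, most of all in KN1.

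*Ptch1*, which binds the ligand and is raised by the signal itself, differed 12.5-fold between the highest and the lowest line. Its level was 13.7 RPM (12.6 to 14.9) in XN4, 73.6 RPM (69.8 to 77.5) in XN1, 172 RPM (167 to 177) in KN1, and 141 RPM (137 to 146) in CN4. XN4 was thus low and KN1 and CN4 high, with no overlap of the intervals of any pair of lines. Without XN4 the range narrowed to 2.34-fold, and without XN4 and KN1 it was 1.92-fold (1.81 to 2.05) between CN4 and XN1. The share of cells with a *Ptch1* read gave another order, with 40.8% in CN4, 25.6% in XN1, 15.9% in KN1, and 7.08% in XN4. When every cell was thinned to 3200 reads, these shares were 26.9%, 18.9%, 14.5%, and 3.34%. KN1 cells that captured *Ptch1* held 7.49 reads of it on average, against 2.31 in CN4, 2.05 in XN4, and 1.42 in XN1, so that KN1 was above CN4 and XN1 by reads and below both by cells.

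**Figure D1:**
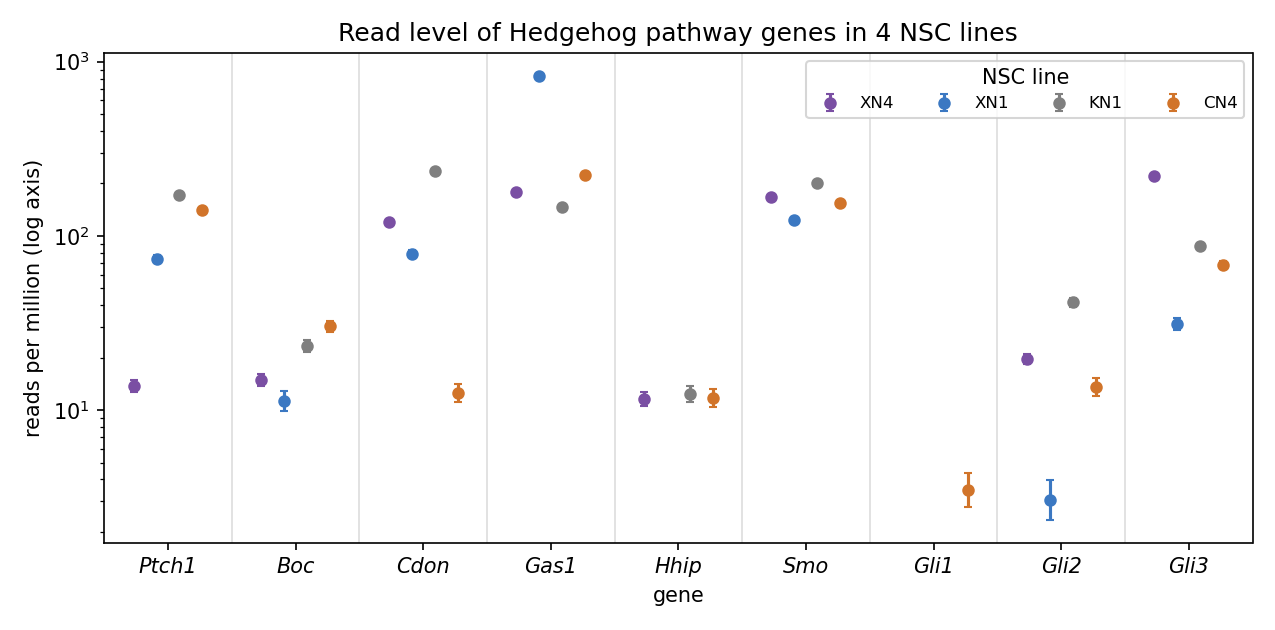
RPM of each Hedgehog pathway gene in the normalized tables of the 4 lines (log axis), as points with exact 95% counting intervals. *Ptch1* is lowest in XN4 at 13.7, *Gas1* is highest in XN1 at 822, *Smo* varies least of the genes listed in all 4 lines, and a gene not listed in a line (*Gli1* in XN4, XN1, and KN1, *Hhip* in XN1) has no point.

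The co-receptors, membrane proteins that hand the ligand to *Ptch1*, each had a different line at the top by RPM. *Gas1*, a lipid-anchored protein, had 822 RPM (810 to 835) in XN1, 225 in CN4, 178 in XN4, and 147 in KN1. It was captured in 80.8% of XN1 cells, the largest share of any member in any line, and XN1 exceeded CN4 3.66-fold (3.54 to 3.77). *Cdon*, an immunoglobulin-family receptor, had 235 RPM in KN1, 120 in XN4, 79.1 in XN1, and 12.5 (11.1 to 14.0) in CN4. CN4 was the low line here, 6.32-fold (5.57 to 7.20) under XN1 and 18.8-fold under KN1, and 4.96% of its cells captured *Cdon* against 22.4% to 40.8% elsewhere. By share of cells XN4 and not KN1 was the top line for *Cdon*, with 40.8% and 22.4% (25.9% and 19.4% of thinned cells). *Boc*, the close relative of *Cdon*, was highest where *Cdon* was lowest, with 30.2 RPM (28.0 to 32.6) in CN4, 23.4 in KN1, 14.9 in XN4, and 11.3 (9.86 to 12.9) in XN1. *Boc* was captured in 14.1% of CN4 cells and in 3.25% to 7.82% of the cells of the other lines. The other 3 lines stood in the same order for both genes by RPM, with KN1 above XN4 and XN4 above XN1.

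*Hhip*, which binds the ligand and withholds it from *Ptch1*, stood at similar levels by RPM in 3 lines, with 12.4 RPM (11.1 to 13.8) in KN1, 11.7 (10.4 to 13.2) in CN4, and 11.6 (10.6 to 12.7) in XN4, whose intervals overlap. By the share of thinned cells KN1 was below both, with 1.15% (0.818% to 1.57%) against 2.91% (2.35% to 3.56%) in CN4 and 2.07% (1.62% to 2.61%) in XN4. The 342 reads of KN1 came from 52 cells. *Hhip* is not listed in the normalized table of XN1. In the same XN1 cells of the table of all reads, 7 captured it, and in the whole table it had 0.516 RPM (0.380 to 0.684) in XN1, 8.40 in XN4, and 10.2 in CN4. CN4 exceeded XN1 19.8-fold (14.8 to 26.9) and XN4 1.21-fold (1.13 to 1.31) there.

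*Smo*, the membrane protein that passes the signal into the cell, varied least of the members that passed 10 RPM. Its levels were 200.01 RPM in KN1, 167 in XN4, 154 in CN4, and 123 (119 to 129) in XN1, a 1.62-fold range, and 16.5% of the 10235 genes with a mean of at least 10 RPM had a smaller one. It was captured in 54.8% of XN4, 53.3% of CN4, 38.7% of XN1, and 19.4% of KN1 cells. KN1 was thus the highest line by reads and the lowest by cells, and its log2 difference from every other line changed sign between RPM and the share of thinned cells, from 0.37 to -1.03 for KN1 over CN4, from -0.26 to 0.97 for XN4 over KN1, and from -0.70 to 0.79 for XN1 over KN1.

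The Gli genes, whose products carry the signal to the nucleus, each had their own pattern over the lines. *Gli3* had 222 RPM (217 to 226) in XN4, 87.8 in KN1, 68.2 in CN4, and 31.1 (28.7 to 33.7) in XN1, so that XN4 exceeded XN1 7.12-fold (6.55 to 7.74). The share of capturing cells was 56.4% in XN4, 27.7% in CN4, 11.9% in XN1, and 9.74% in KN1, and the range of the levels without XN4 was 2.82-fold. *Gli2* had 41.7 RPM in KN1, 19.7 in XN4, 13.6 in CN4, and 3.06 (2.33 to 3.95) in XN1, which stood 4.44-fold under CN4. By RPM XN1 was the lowest line for *Gli2* and *Gli3* alike, while by the share of thinned cells it was the lowest for *Gli2* (0.991%) and stood beside KN1 for *Gli3* (8.69% and 8.57%), with overlapping intervals. Both genes are long, with spans of 219 and 267 kb, and reads in introns were counted.

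*Gli1* was listed in CN4 alone, with 80 reads, 3.49 RPM (2.76 to 4.34), in 52 of 3448 cells (1.51%). In the tables of all reads it was captured in 379 of 18157 CN4 cells (2.09%, 1.88% to 2.31%), in 10 of 8741 XN4 cells, and in 3 of 14452 XN1 cells. Its level was 2.90 RPM in CN4 and 0.0927 RPM in XN4, a ratio of 31.3 (18.2 to 59.2), and the 3 reads of XN1 gave a ratio of CN4 to XN1 of 90.1 with an interval of 30.7 to 438. KN1 does not list *Gli1*, while its *Ptch1* was above that of CN4 by RPM (log2 0.28) and below it by the share of thinned cells (log2 -0.89), and its table of all reads was not used here.

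**Figure D2:**
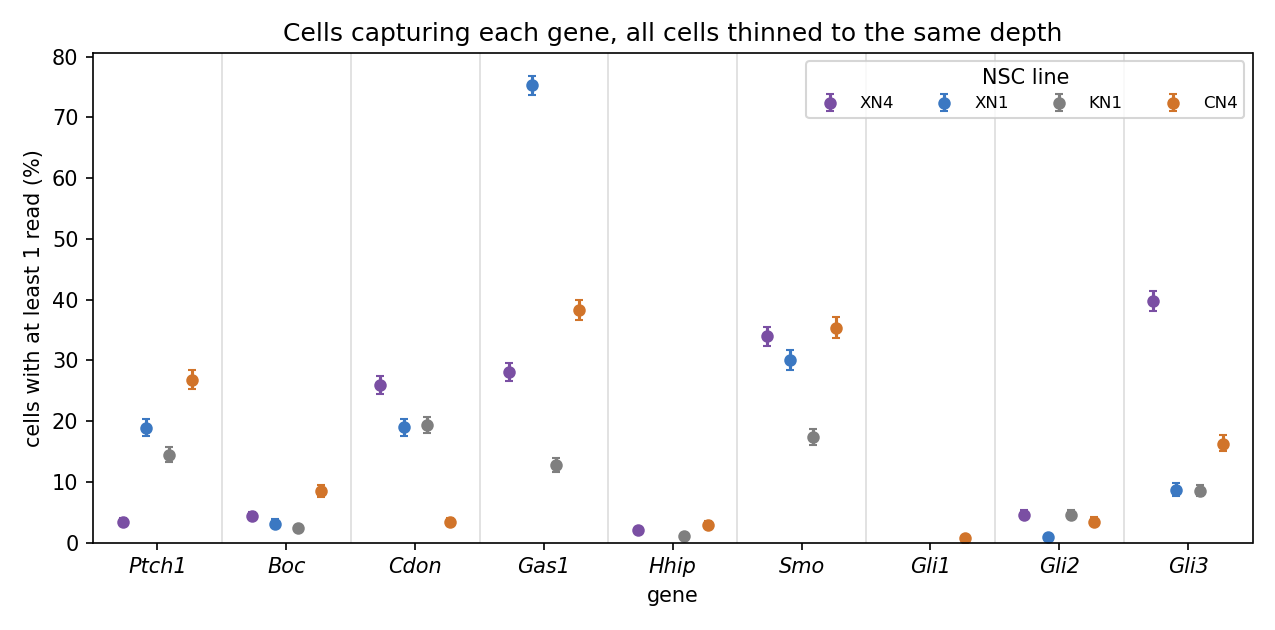
Share of cells (%) with at least 1 read of each Hedgehog pathway gene after thinning every cell to 3200 reads, in 3129 to 3396 cells per line, as points with exact 95% intervals. CN4 is highest for *Ptch1* (26.9%), XN1 for *Gas1* (75.3%), and XN4 for *Gli3* (39.8%), while KN1 is lowest for *Gas1* and *Smo*.

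Levels of different genes were compared only per kilobase of annotated exons. On this scale *Gas1* was first in every line, with 49.7 to 278 RPM per kb, and *Smo* came next, with 22.0 to 35.6. *Ptch1* came next in CN4 (9.97 RPM per kb), stood below *Cdon* in XN1 (5.19) and KN1 (12.1), and was the lowest of the listed members in XN4 (0.969). Exon length takes no account of intronic reads, and *Gas1* lies in 1 exon of 2.96 kb.

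Over pairs of lines, the members were set against all genes with a mean of at least 10 RPM over the pair, and a gene counted as different at 2-fold or more. Between XN1 and CN4, the pair with the fewest differences over all genes, *Cdon* and *Gas1* were higher in XN1 and *Boc* and *Gli3* higher in CN4, so that 4 of the 6 members tested were past 2-fold. Over all genes, 7.27% were higher in XN1 and 6.61% higher in CN4. Between XN4 and XN1, *Gli2* and *Gli3* of 7 members were higher in XN4 and *Ptch1* and *Gas1* in XN1, with 15.8% and 12.7% of all genes. Between XN4 and CN4, *Cdon* and *Gli3* of 8 were higher in XN4 and *Ptch1* and *Boc* in CN4, with 15.6% and 14% of all genes. By the share of thinned cells, *Boc* no longer passed 2-fold between XN4 and CN4 (log2 -0.98 in place of -1.02), which left *Cdon* and *Gli3* higher in XN4, beside 12.6% of all genes, and *Ptch1* higher in CN4, beside 16.9%. Between XN4 and XN1 the same 4 members passed, beside 11.8% of all genes higher in XN4 and 14.8% in XN1.

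In pairs with KN1, many genes of any kind were past 2-fold. Against XN4, *Gli3* of 8 members was higher in XN4 and *Ptch1* and *Gli2* higher in KN1, beside 23.4% and 19.8% of all genes. Against XN1, *Gas1* of 7 was higher in XN1 and *Ptch1*, *Boc*, *Cdon*, *Gli2*, and *Gli3* higher in KN1, beside 23.3% and 22.9%. Against CN4, *Cdon* and *Gli2* of 8 were higher in KN1 and 0 members higher in CN4, beside 18.9% and 22.2%. By the share of thinned cells 4 members were 2-fold or more higher in CN4 than in KN1, namely *Boc* (8.52% and 2.39%), *Gas1* (38.3% and 12.8%), *Hhip* (2.91% and 1.15%), and *Smo* (35.4% and 17.4%), and *Cdon* alone was higher in KN1. On that measure 63.1% of all genes were 2-fold or more higher in CN4 and 3.83% higher in KN1, so that 4 of 8 members is below the share of all genes. Between XN4 and KN1, *Gas1* (28.1% and 12.8%) and *Gli3* of 8 were higher in XN4, beside 56.2%, and *Ptch1* higher in KN1, beside 8.13%, so that *Gas1* was gained and *Gli2* lost. Between XN1 and KN1, *Gas1* of 7 members was then higher in XN1, beside 59.3% of all genes, and *Gli2* higher in KN1, beside 5.61%. Between XN1 and CN4, *Cdon* of 6 was higher in XN1, beside 6.34%, and *Boc* higher in CN4, beside 5.57%. By the share of thinned cells, the log2 difference of XN1 over KN1 changed sign for 4 of 7 members, from -1.23 to 0.39 for *Ptch1*, from -1.05 to 0.39 for *Boc*, and from -1.50 to 0.02 for *Gli3*, beside *Smo*. That of XN4 over KN1 changed sign for 5 of 8, from -1.08 to 0.0051 for *Gli2*, from -0.97 to 0.42 for *Cdon*, from -0.65 to 0.86 for *Boc*, and from -0.10 to 0.85 for *Hhip*, beside *Smo*. That of KN1 over CN4 changed sign for 4 of 8, from 0.28 to -0.89 for *Ptch1*, from 0.36 to -0.93 for *Gli3*, and from 0.08 to -1.34 for *Hhip*, beside *Smo*. Among the pairs without KN1, only *Smo* between XN4 and CN4 did so, from 0.11 to -0.06. The larger number of reads per capturing cell in KN1 moves with these values, and its part in them was not tested.

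Over the 4 lines, 6 of the 7 members with a mean of at least 10 RPM differed 2-fold or more between the highest and the lowest line, with a median of 7.12-fold, against 67.5% of 10235 genes with a median of 2.62-fold, where a gene not listed in a line was taken at 3 reads. Without XN4, 6 of the 7 were still past 2-fold, but their median was 2.82-fold, against 56.1% of all genes with a median of 2.19-fold. Without KN1 it was again 6 of 7, with a median of 6.44-fold, against 39.4% and 1.75-fold. The genes whose levels over the 4 lines were nearest to those of *Ptch1*, by Euclidean distance of centred log2(RPM + 1), were *Rtkn2*, *Fam81a*, and *Hectd2*, at 0.263, 0.319, and 0.417. Those nearest to *Gli3* were *Kank4*, *Dab2*, and *Arhgap32*, at 0.251, 0.290, and 0.406, and those nearest to *Gli1* were *Ccne2*, *Cntfr*, and *Ndufc2*, at 0.444, 0.523, and 0.551. With 4 points for a gene and 1 library for a point, this likeness is a description. *Gli1*, listed in CN4 alone, was taken at 0 in the other lines, so its nearest genes depend on the 1 added to RPM.

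Of the ligands, *Shh* was captured in 434 of 18157 CN4 cells (2.39%, 2.17% to 2.62%) in the tables of all reads, and in 10 of 14452 XN1 and 2 of 8741 XN4 cells. It is not listed in the normalized tables of XN4, XN1, and KN1. *Dhh*, the ligand known from Schwann and Sertoli cells, was captured in 148 XN1 cells (1.02%), 83 CN4 cells (0.457%), and 2 XN4 cells, and *Ihh*, the ligand of growing cartilage, in 3 to 13 cells of a line. CN4 thus had the most *Shh*-capturing cells and XN1 the most *Dhh*-capturing cells. Of the 8 genes for ligands and their release, *Disp1*, which frees the lipid-bearing ligand, was the only one with a mean of at least 10 RPM, at 39.2 RPM in XN4, 25.3 in XN1, 22.6 in KN1, but 19.2 in CN4. By the share of thinned cells KN1 and not CN4 was the lowest line for *Disp1* (2.33% and 5.67%).

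Of the 8 other surface genes, 6 passed 10 RPM and all 6 were past 2-fold between lines, against 67.5% of all genes, with the lowest level in CN4 for 4 of them (66.7%), against 12.5% of all genes. *Gpc6*, a glypican, had 1155 RPM in KN1, 351 in XN4, 73.7 in XN1, and 67.8 in CN4, and *Gpc3*, a glypican that binds the ligand, had 70.2 in XN4, 34.5 in XN1, 17.2 in CN4, and 5.22 in KN1. By the share of thinned cells KN1 and XN4 stood close for *Gpc6* (48.7% and 47.3%), with overlapping intervals. Of the 21 genes that act between *Smo* and the Gli proteins, 20 passed 10 RPM and 15 (75%) were past 2-fold, with a median of 2.58-fold, near the 67.5% and 2.62-fold of all genes. *Gnas*, which encodes a stimulatory G protein subunit, had 433 RPM in KN1 and 2108 to 2434 in the other lines, and *Kif7*, the ciliary kinesin of the pathway, had 20.0 RPM in CN4, 11.8 in XN4, 11.4 in XN1, and 4.50 in KN1. *Btrc* went the other way, with 152 RPM in KN1 and 35.9 to 103 elsewhere. KN1 was the lowest line for 9 of the 20 (45%) and the highest for 7 (35%), against 38.7% and 30.8% of all genes. All 14 primary cilium genes passed 10 RPM, 11 were past 2-fold, and KN1 was the highest line for 9 (64.3%), against 30.8% of all genes. By the share of thinned cells KN1 was the highest line for 3 of the 14 (21.4%), against 5.89% of all genes, and XN4 for 6 (42.9%), against 29.0%. CN4 was the highest line for 0 of the 14 by either measure, against 24.2% of all genes by RPM and 37.6% by the share of thinned cells. *Dync2h1*, the motor of retrograde ciliary transport, had 409 RPM in KN1 and 54.7 to 97.9 elsewhere, and was captured in 28.9% of thinned KN1 cells and 13.8% to 21.7% of those of the other lines.

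Of the 19 ventral and other target genes, 9 passed 10 RPM and all 9 were past 2-fold, with a median of 11.3-fold, against 67.5% and 2.62-fold of all genes. *Olig2*, a ventral progenitor factor, had 890 RPM in XN1, 896 in CN4, and 310 in KN1, and is not listed in XN4, whose table of all reads held 5 reads of it. *Nkx2-2*, a factor of the ventral p3 domain, had 30.9 RPM in XN1, 23.1 in CN4, and 12.7 in KN1, and the XN4 table of all reads held 5 reads of it. *Sfrp1*, a secreted Wnt antagonist, had 121 RPM in XN4, 23.3 in KN1, 12.5 in CN4, and 0.83 in XN1, and *Foxc1*, a forkhead factor, had 196 in XN4, 70.2 in XN1, 57.7 in CN4, and 6.17 in KN1. *Foxa2*, a forkhead factor made with *Shh* in the floor plate, was captured in 1022 CN4 cells (5.63%), 16 XN1 cells, and 3 XN4 cells where all reads were used, and in 19 KN1 cells of the normalized table. *Foxa2* was named after its values were seen. The mesenchymal markers described above move with the XN4 values, and their part in them was not tested.

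Whether members were captured in the same cells was examined within each line. Deeper cells capture more of every gene, so the expected number of cells with both genes was added up over 20 groups of cells of similar read total, and pairs with at least 10 expected cells were described. In the normalized tables, the median observed over expected ratio was 1.01 over 28 pairs in XN4, 1.04 over 19 in XN1, 0.997 over 24 in KN1, and 1.02 over 31 in CN4. The interval of the observed number lay above the expected one for 1 pair in XN4 (*Cdon* and *Gli3*, 1.09) and 1 in CN4 (*Hhip* and *Gli2*, 1.81, 1.16 to 2.70), for 0 pairs in XN1 and KN1, and below it for *Boc* and *Cdon* in CN4 (10 cells observed, 23.8 expected). Over the pairs of a member with any other gene, the share above was 0.908% for XN4, 1.22% for XN1, 1.26% for KN1, but 1.18% for CN4, and the share below was 0.716%, 0.543%, 0.86%, and 0.971%. The interval held the number expected from depth for 27 pairs in XN4, 29 in CN4, and all 19 and 24 in XN1 and KN1.

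In the larger CN4 table of all reads, 10 of 36 pairs lay above the expected number, against 2 of 28 in XN4 and 1 of 24 in XN1, which have fewer cells. Over the pairs of a member with any other gene in these tables, 4.23% lay above it in CN4, 2.5% in XN4, and 2.97% in XN1, and 2.62%, 1.01%, and 1.23% lay below it. The highest were *Gli1* with *Gli2* (65 cells, 34.6 expected, ratio 1.88, 1.45 to 2.39), *Gli1* with *Hhip* (51 cells, 31.6 expected, 1.61, 1.20 to 2.12), and *Gli1* with *Ptch1* (277 cells, 187 expected, 1.48, 1.31 to 1.67). Cells with *Gli1*, the activator that the pathway raises, thus captured *Gli2*, *Hhip*, and *Ptch1* more often than their depth gave. Markers of other cells moved with *Gli1* as well. Among the 379 cells with *Gli1*, 8 of the 10 mesenchymal markers were captured more often than depth gave, among them *Col3a1* (13 cells, ratio 2.97, 1.58 to 5.07), *Lum* (7 cells, 3.23, 1.30 to 6.65), and *Col1a2* (21 cells, 1.76, 1.09 to 2.69), and the intervals of *Twist1* and *Tbx18* held 1. Of the 10 NSC markers, *Sox1* was captured more often (1.43, 1.24 to 1.65), *Sox3* (0.66, 0.55 to 0.78) and *Hes5* (0.58, 0.44 to 0.76) less often, and the intervals of the other 7 held 1. Among these, *Fabp7*, *Vim*, and *Sox2* were expected in 376, 377, and 344 of the 379 cells, so that a rise could not have shown. In the 16787 cells without a read of any mesenchymal marker other than *Prrx1*, an alternative chosen after seeing the data, the ratios were 1.84 (1.37 to 2.41) for *Gli1* with *Gli2*, 1.60 (1.16 to 2.16) with *Hhip*, and 1.48 (1.30 to 1.68) with *Ptch1*. *Gli1* with *Smo* stood at 1.02 and *Gli1* with *Gli3* at 1.04 in all 18157 cells. *Hhip* with *Gli2*, at 1.81 from 24 cells of the normalized table, stood at 1.22 there (134 cells, 110 expected, 1.02 to 1.45). *Boc* with *Cdon* (107 cells, 150 expected, 0.71), *Cdon* with *Gli2* (55 cells, 0.72), and *Gas1* with *Gli1* (198 cells, 0.87, 0.75 to 0.996) lay below.

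**Figure D3:**
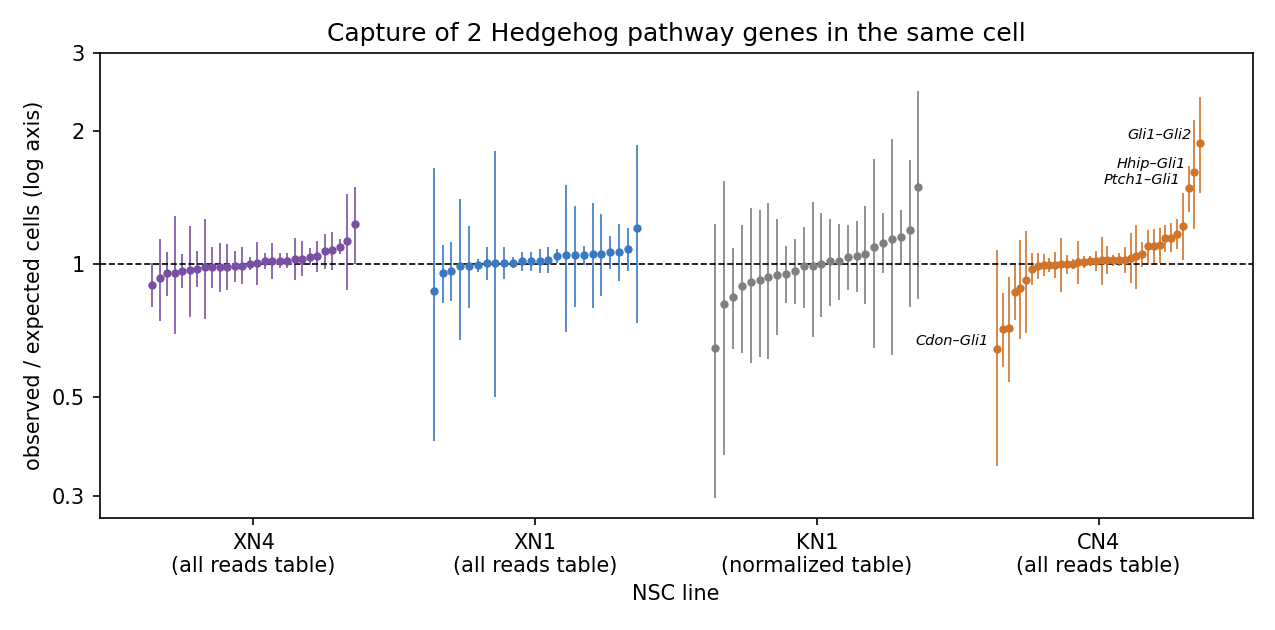
Observed over expected number of cells (log axis) that captured both genes of a pair, for pairs with at least 10 expected cells, ordered by ratio within each line, from the tables of all reads of XN4, XN1, and CN4 and the normalized table of KN1, with exact 95% intervals of the observed number. Most pairs lie near the dashed line at 1, and in CN4 the pairs of *Gli1* with *Gli2*, *Hhip*, and *Ptch1* reach 1.88, 1.61, and 1.48.

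CN4 held a small number of cells with many *Ptch1* reads, a set cut at 10 reads after the values were seen. These were 257 of 18157 cells (1.42%, 1.25% to 1.60%) in the table of all reads, which held 20.6% of all *Ptch1* reads of the line, and the richest cell had 64. The cut passed 3 of 8741 XN4 cells and 0 of 14452 XN1 cells. In the normalized tables it passed 176 of 3975 KN1 cells, 34 of 3448 CN4 cells, 1 XN4 cell, and 0 XN1 cells, and when all cells were thinned to 3200 reads it passed 23 KN1 and 4 CN4 cells. The median CN4 cell of this set had 12230 reads and 3740 genes, against 9130 reads and 3086 genes in the other cells.

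Of these 257 cells, 146 (56.8%) captured *Shh*, against 1.61% of the other CN4 cells, and 157 (61.1%) captured *Foxa2*, against 4.83%. The expected numbers given the depth of the cells were 8.66 and 20.2, so that the ratios were 16.9 (14.2 to 19.8) for *Shh* and 7.76 (6.60 to 9.08) for *Foxa2*. *Gli1* was captured in 53 of them (20.6%), with a ratio of 7.12 (5.33 to 9.31), and *Gli2* in 61, with a ratio of 2.46 (1.88 to 3.16). *Gli3* went the other way, with 61 cells where 98.1 were expected, a ratio of 0.62 (0.48 to 0.80), and *Gas1* stood at 0.80 (0.66 to 0.95). The ratios of *Smo* (0.94, 0.80 to 1.09), *Hhip* (1.06, 0.68 to 1.57), *Boc* (0.72, 0.49 to 1.02), and *Cdon* (1.52, 0.96 to 2.28) had intervals that held 1. As a set, these cells, taken by their *Ptch1* reads, captured *Shh*, *Gli1*, and *Gli2* more often than depth gave, and *Gli3* less often. Most of them had no read of *Gli1* or *Gli2*. Among markers, *Dcn* (19 cells, ratio 4.84, 2.92 to 7.56) and *Sox1* (1.88) were captured more often, *Sox3* (0.39), *Pax6* (0.53), and *Hes5* (0.37) less often, and the intervals of the other 9 mesenchymal markers held 1.

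The cells were then taken by *Shh* in place of *Ptch1*, also after the values were seen. Of the 434 cells with an *Shh* read, 381 captured *Ptch1* (87.8%), with a median of 6 *Ptch1* reads per cell and a level of 683 RPM, against 42.8%, a median of 0, and 96.3 RPM in the other 17723 cells. *Gli1* was captured in 49 (11.3%, ratio 4.13, 3.06 to 5.46), and *Gli2* in 66 (ratio 1.67, 1.29 to 2.12). *Hhip*, also a target of the pathway, was captured in 30 (ratio 0.83, 0.56 to 1.18), *Gas1* in 216 (ratio 0.83, 0.72 to 0.95), and *Gli3* in 90 (20.7%, ratio 0.57, 0.46 to 0.70). The intervals of *Smo* (0.98), *Boc* (0.92), and *Cdon* (1.39) held 1. *Shh* was captured in 20.9% of the cells with *Foxa2* and in 1.28% of those without it. Among the 214 cells with both *Shh* and *Foxa2*, 112 (52.3%) had 10 or more *Ptch1* reads, against 34 of 220 (15.5%) with *Shh* alone, 45 of 808 (5.57%) with *Foxa2* alone, and 66 of 16915 (0.39%) with neither. The *Shh*-capturing cells were deeper than the others, with medians of 11419 and 9119 reads, and they captured *Mki67* less often than their depth gave (49.3%, ratio 0.72). Of the 10 NSC markers, *Sox1* was captured more often (60.8%, ratio 1.69, 1.49 to 1.91), and *Sox3* (ratio 0.57, 0.48 to 0.68), *Hes5* (0.51, 0.38 to 0.66), and *Pax6* (0.69, 0.55 to 0.85) less often. The intervals of the others, *Sox2* among them (88.7%, ratio 0.98), held 1, though the level of *Fabp7* was 2228 RPM in these cells and 3397 RPM in the others. For *Fabp7* and *Vim*, each expected in 431 of the 434 cells, a rise could not have shown by this ratio. *Sox2*, expected in 393, could have shown a rise only with capture in nearly every cell. Of the 10 mesenchymal markers, *Dcn* was captured more often (26 cells, 5.99% against 1.05%, ratio 4.18, 2.73 to 6.12), *Prrx1* less often (153 cells, ratio 0.78, 0.66 to 0.91), and the intervals of the other 8 held 1, with *Col3a1* in 4 cells and *Postn* in 0. *Sox10*, a marker of oligodendrocyte precursors and neural crest, was captured in 1 cell, where 7.17 were expected. Of the *Ptch1* reads of CN4, 82.1% lay in cells with no *Shh* read, and the *Ptch1* level outside the 257 cells was 92.0 RPM, against 114 in all CN4 cells. Doublets were not called, and the part of doublets in these values was not tested.

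**Figure D4:**
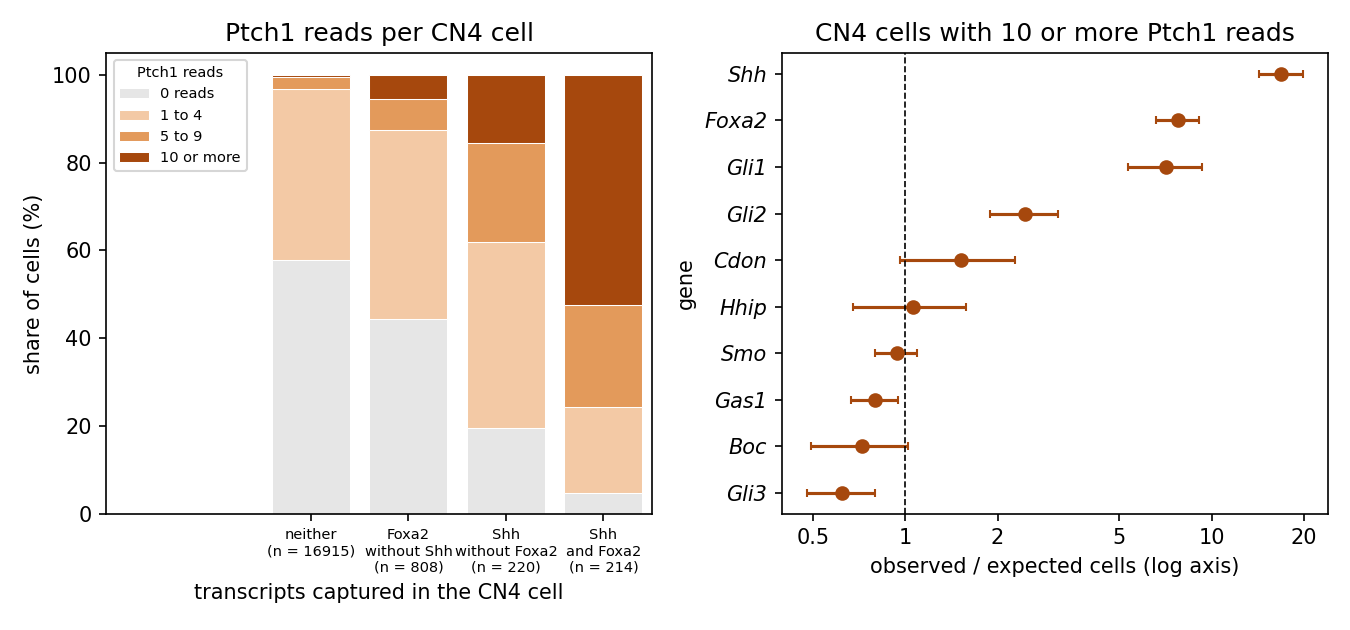
Left, share of CN4 cells (%) by their number of *Ptch1* reads, for cells with neither *Shh* nor *Foxa2* read, *Foxa2* alone, *Shh* alone, or both, with the number of cells below each bar. Right, observed over expected number of cells (log axis) that captured each gene among the 257 CN4 cells with 10 or more *Ptch1* reads, with exact 95% intervals, where *Shh* reaches 16.9 and *Gli3* falls to 0.62.

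Dividing cells, taken as those with thinned reads of at least 2 of *Hmgb2*, *Mki67*, and *Top2a*, made up 22.0% of the thinned cells of XN4, 25.5% of XN1, 25% of KN1, and 55.5% of CN4. *Gas1* was captured in 33.2% of dividing and 26.6% of other XN4 cells and in 41.3% and 34.5% of CN4 cells, with intervals that do not overlap. *Gli2* was more often captured in dividing XN4 cells (6.85% and 3.94%), *Smo* in dividing XN1 (34.8% and 28.4%) and CN4 cells (38.1% and 32.1%), *Gli3* in dividing XN1 cells (13.5% and 7.04%), *Hhip* in dividing CN4 cells (3.88% and 1.71%), and *Ptch1* in dividing KN1 cells (18.5% and 13.1%). *Cdon* in CN4 was the 1 case with the lower share in dividing cells (2.11% and 4.84%). Over all genes captured in at least 20 thinned cells, the share captured more often in dividing cells with separate intervals was 16.4% in XN4 (members 2 of 8), 14.5% in XN1 (2 of 7), 12.8% in KN1 (1 of 8), and 9.84% in CN4 (3 of 9). The share captured less often was 8.52% in XN4 (members 0 of 8), 10.6% in XN1 (0 of 7), 0.239% in KN1 (0 of 8), and 8.33% in CN4 (1 of 9), and with so few members these counts are a description. The other 23 combinations of gene and line had overlapping intervals, among them *Ptch1* in CN4 (28.4% and 24.9%) and *Gli1* in CN4 (0.741% and 0.783%). In the larger tables of all reads, *Gas1* in XN1 (77.5% and 70.9%) and *Gli3* in CN4 (16.5% and 13.0%) had separate intervals as well. No share of all genes is given for those tables.

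**Figure D5:**
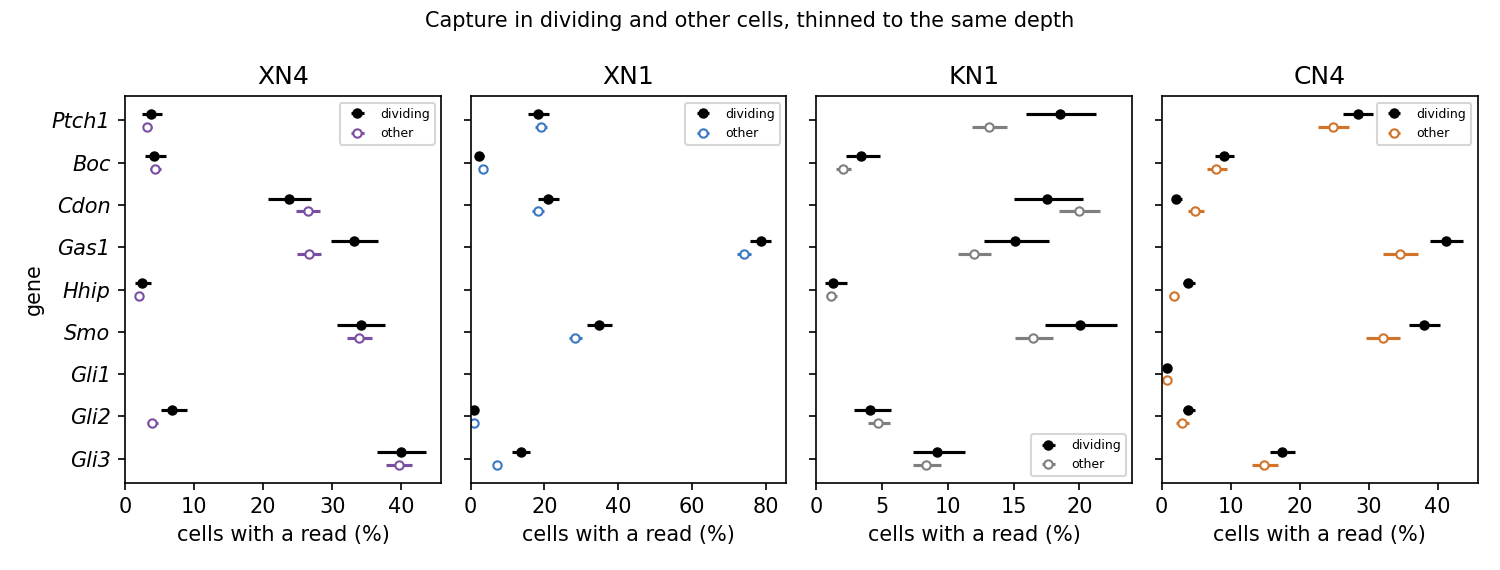
Share of cells (%) with a read of each Hedgehog pathway gene in dividing cells (black) and other cells (open), in the 4 lines, all cells thinned to 3200 reads, with exact 95% intervals. In 9 combinations of gene and line, *Gas1* and *Gli2* in XN4 and *Cdon* in CN4 among them, the intervals do not overlap (of all genes, 9.84% to 16.4% were more often and 0.239% to 10.6% less often captured in dividing cells of a line), and each panel has its own axis.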

How the data were processed

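Each of the 4 NSC lines was measured as 1 BD Rhapsody whole-transcriptome library. Per the labels and file headers, reads were assigned with the BD Rhapsody WTA pipeline 1.12.1 on GRCm38, and intronic reads were not excluded. The authors deposited a table of read counts per gene and cell, used here for XN4, XN1, and CN4 (93096507 to 180825519 reads a line). The authors also deposited, for every line, a table of natural log values, made with Seurat 4.3.0 from 1 plus the reads per 10000 reads of a cell, for a subset of 3448 to 3975 cells a line without ribosomal protein and mitochondrial genes. A gene not listed there is not necessarily at 0. The reads behind these values were recovered per cell (19271688 to 41539513 reads a line). The number of columns that belong to no sample was 0.

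Levels were reads per 1000000 reads (RPM) with exact Poisson intervals, shares of cells had Clopper-Pearson intervals, and ratios between lines had intervals from the exact binomial. Observed over expected ratios had exact Poisson intervals of the observed number of cells. All intervals were at 95%. Reads are amplified copies and not molecules, so these cover counting error only. With 1 library per line no test was run. Genes with a mean of at least 10 RPM were compared at 2-fold. Shares were also computed after thinning cells to 3200 reads (normalized tables, 290 to 776 cells a line left out) or 3600 reads (tables of all reads). The members and lists were chosen with earlier results of these data known. Beside the members, the genes named were the ligands, up to 4 genes of each list with the largest ratio of the highest to the lowest line, the 3 nearest genes of *Ptch1*, *Gli1*, and *Gli3*, and markers a result turns on. The sets of CN4 cells with many *Ptch1* reads, *Shh*, or *Foxa2* were chosen after their values were seen. The calculations used Python 3.11.15, numpy 2.4.6, scipy 1.17.1, pandas 2.3.3, and matplotlib 3.10.9, and were tested on simulated data. The result for 1 further gene is not reported here.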

Additional observations from a re-analysis of the deposited data

Results flagged for a closer look

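In XN1, where *Hhip* is not listed in the normalized table, the table of all reads held 48 *Hhip* reads in 37 of 14452 cells (0.256%), above the 3 reads that a count of 0 allows. In XN4, where *Gli1* is not listed, the table of all reads held 13 *Gli1* reads in 10 of 8741 cells (0.114%).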

How the results depend on the processing

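No paired analysis was possible because each line is 1 library, and for the same reason no replicate could be left out. By the share of thinned cells in place of RPM, the log2 difference changed sign for 5 of 8 members between XN4 and KN1, 4 of 7 between XN1 and KN1, 4 of 8 between KN1 and CN4, and 1 of 8 between XN4 and CN4. Where the difference was 2-fold by either measure, these were *Gli2* between XN4 and KN1 (0.0051), *Ptch1* (0.39), *Boc* (0.39), and *Gli3* (0.0207) between XN1 and KN1, and *Hhip* (-1.34) and *Smo* (-1.03) between KN1 and CN4. The count of members 2-fold apart became 2 in place of 6 for XN1 and KN1, 2 in place of 4 for XN1 and CN4, and 5 in place of 2 for KN1 and CN4, beside 59.3% and 5.61%, 6.34% and 5.57%, and 3.83% and 63.1% of all genes higher in the first and second line of each pair by that share. It became 3 in place of 4 for XN4 and CN4, where *Boc* was lost (-0.98), and stayed at 3 for XN4 and KN1, where *Gas1* (1.14) took the place of *Gli2*, and at 4 for XN4 and XN1. A threshold of 3-fold gave 1 in place of 3 for XN4 and KN1, 2 for XN1 and KN1, and 2 for XN1 and CN4, and 1.5-fold gave 5 for XN4 and KN1. For XN1 and CN4, a minimum of 1 RPM or no filter gave 7, which adds *Gli2*, *Hhip*, and *Gli1*. *Hhip* and *Gli1* are not listed in XN1 and passed only with XN1 taken at 3 reads. No share of all genes is given for these thresholds and minimums, so these counts are a description.

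Pairs captured together more often than expected were 1 in XN4 and CN4 and 0 in XN1 and KN1. Without strata for depth XN4 had 18, XN1 had 1, KN1 had 6, and CN4 had 4, and in the tables of all reads 2 in XN4, 1 in XN1, and 10 in CN4. In XN4, 5 strata, 50 strata, and strata by genes detected each gave 2, and in KN1 5 strata gave 1. The share over pairs of a member with any other gene is given only for 20 strata by read total. The counts without strata or with other strata are therefore a description. The count of members with separate intervals in dividing cells went from 2 to 1 in XN4 and from 4 to 2 in CN4 when 1 cycle gene sufficed, from 2 to 1 in XN1 and from 4 to 2 in CN4 when all 3 were needed, and, with reads not thinned, to 7 in XN4, 4 in XN1, and 6 in KN1. No share of all genes is given for these other settings of dividing cells, so the counts under them are a description. The cause of all these changes was not tested. Median-of-ratios scaling moved the levels of KN1 most, by 0.11 (log2), and those of CN4 the other way, by -0.09. The shifts for XN1 (0.02) and XN4 (-0.04) were smaller. A difference between lines moves by the shifts of both, so that of KN1 and CN4 moves by more than 0.11. With these shifts *Cdon* between XN4 and KN1 (-0.97 by RPM) passes 2-fold, and *Boc* between XN4 and CN4 (-1.02) no longer does. The counts of members 2-fold apart are given without this scaling. In CN4, alternatives chosen after seeing the data gave ratios of 8.80 to 30.1 for *Shh* among cells with many *Ptch1* reads.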

Other observations

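The genes with the highest level in the 434 CN4 cells with an *Shh* read over the other CN4 cells were ranked after the values were seen, among 13366 genes captured in at least 100 cells. *Ffar4*, a fatty acid receptor, was first, with 72.5-fold more RPM and capture in 24.0% of these cells against 0.406% of the others. *Sftpc*, a lung surfactant protein gene, followed at 65.8-fold (19.1% of cells) and *Sostdc1*, a secreted antagonist of BMP and Wnt signals, at 35.1-fold (23.5%). *Apela*, a peptide ligand gene, stood at 18.8-fold, the BMP ligand gene *Bmp6* at 18.0-fold, *Foxa2* at 17.0-fold, and *Calca*, the gene of calcitonin and its related peptide, at 16.3-fold. Among the pathway members, *Ptch1* ranked 31, *Gli1* ranked 55, *Gli2* ranked 870, *Cdon* ranked 3562, *Smo* ranked 5795, *Hhip* ranked 9212, *Boc* ranked 10624, *Gas1* ranked 10792, and *Gli3* ranked 12571.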
